A study of Homo sapiens with 4 samples.

Results

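The genes described here are 10 protein-coding genes, taken by name from a count table of 59652 genes. They are the chemokines CXCL1, CXCL2, CXCL3, CXCL5, CXCL8 and CCL20, the NF-kB feedback genes NFKBIA, TNFAIP3 and BIRC3, and the cytokine gene LIF. All 10 were found in the table under their symbols, each in 1 row. The study asked which RNAs follow the glucose concentration in hepatocellular carcinoma cells. Huh7 and PLC are established liver cancer lines, PLC being PLC/PRF/5, and both are wild type in the labels. Each line was grown in glucose-free DMEM with serum, to which 5 mM glucose (low glucose) or 25 mM glucose (high glucose) was added, and RNA was taken after 48 h. Each line at each concentration gave 1 library, so no condition has a replicate and no spread between cultures can be given.

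NF-kB is a family of transcription factor dimers that inhibitor proteins hold in the cytoplasm of resting cells. Signals from cytokine receptors lead to the breakdown of the inhibitor, and the freed dimers switch on chemokine genes together with genes that shut the signal off again. The CXC chemokines with an ELR motif (CXCL1, CXCL2, CXCL3, CXCL5 and CXCL8) attract neutrophils through the receptors CXCR1 and CXCR2, and CCL20 attracts lymphocytes and dendritic cells through CCR6. Liver tumour cells and inflamed hepatocytes are known sources of these chemokines.

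Counted reads per library came to between 16049686 (PLC, high glucose) and 30279716 (PLC, low glucose). Levels are given as FPKM, the reads of a gene scaled by its length and by the counted reads of its library, which allows genes of different length to be set side by side. Of the 14 hepatocyte markers checked, 14 had an FPKM over 0.5 in both Huh7 libraries and 13 in both PLC libraries, with summed levels of 7650 and 7305 FPKM in Huh7 and 1407 and 2364 FPKM in PLC. TTR had 0 reads in the PLC library at high glucose. The leukocyte markers CD3E and HLA-DRA had 0 reads in every library, PTPRC was under 0.5 FPKM in each, and of the 11 leukocyte markers no more than 3 passed 0.5 FPKM in a library. The summed leukocyte marker level was 38.3 and 40.5 FPKM in Huh7 and 5.08 and 14.8 FPKM in PLC, and most of it came from LYZ and CD14. Summed levels of 9 fibroblast and stellate cell markers were between 1.31 and 9.26 FPKM, and those of 7 endothelial markers between 0.253 and 2.67 FPKM, each higher in Huh7 than in PLC.

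The stretches of promoter that carry a kB motif, the DNA word that NF-kB dimers bind, are shown first, because they are the feature these genes share in sequence. RefSeq promoters on GRCh38.p14, which run from 250 bases before a gene's start to 50 after it, were given for 9 of the 10 genes. The kB consensus was found on either strand in 8 of these 9 promoters, against 11.3% of all 35116 promoters. The narrower word GGAATTTCC was found in 6 of the 9, against 0.461% of all promoters. It overlaps the consensus except in CXCL8, where it stands alone. The genes were grouped as chemokines and NF-kB feedback genes, so these shares describe the set and are not a test of it. The stretches of CXCL1, CXCL2 and CXCL3 are nearly the same, so their matches are not separate observations. Each line gives a stretch on the strand of the gene, with the matching bases in capitals.
CXCL1, chr4:73869289-73869349, plus strand: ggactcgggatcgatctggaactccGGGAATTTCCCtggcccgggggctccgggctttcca
CXCL2, chr4:74099238-74099298, minus strand: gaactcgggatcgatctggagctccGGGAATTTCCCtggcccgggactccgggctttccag
CXCL3, chr4:74038733-74038793, minus strand: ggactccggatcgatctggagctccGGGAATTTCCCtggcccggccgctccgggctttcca
CXCL5, chr4:73998733-73998793, minus strand: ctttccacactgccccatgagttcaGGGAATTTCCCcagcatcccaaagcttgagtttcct
CXCL8, chr4:73740453-73740511, plus strand: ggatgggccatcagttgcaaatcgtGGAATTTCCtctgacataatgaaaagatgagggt
CCL20, chr2:227813738-227813797, plus strand: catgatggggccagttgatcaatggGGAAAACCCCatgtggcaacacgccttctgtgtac
NFKBIA, chr14:35404796-35404855, minus strand: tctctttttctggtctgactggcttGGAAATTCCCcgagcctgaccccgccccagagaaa
TNFAIP3, chr6:137867167-137867238, plus strand: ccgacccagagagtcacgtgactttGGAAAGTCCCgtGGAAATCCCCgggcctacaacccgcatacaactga
BIRC3, upstream match, chr11:102317260-102317319, plus strand: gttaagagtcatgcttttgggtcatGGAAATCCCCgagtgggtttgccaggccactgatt
BIRC3, downstream match, chr11:102317324-102317383, plus strand: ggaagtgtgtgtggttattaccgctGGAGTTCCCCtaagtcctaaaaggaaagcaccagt
CXCL1, CXCL2, CXCL3 and CXCL5 held the same 11 letters, beginning 79, 78, 79 and 91 bases before the start. TNFAIP3 held its matches 67 and 55 bases before the start. A match is a description of the letters and not a measured binding site, and the RefSeq start lay inside the span that the count table gives the gene for CCL20 (by 8103 bases), CXCL3 (118), TNFAIP3 (45), BIRC3 (34), CXCL8 (28) and CXCL2 (1).

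For CXCL8, the gene with the highest level of the 10 in both PLC libraries, a longer stretch is shown, from 250 to 21 bases before its start (chr4:73740319-73740548, plus strand), with capitals for the AP-1 word TGACTCA, the word GGAATTTCC and the TATA box word TATAAA.
CXCL8: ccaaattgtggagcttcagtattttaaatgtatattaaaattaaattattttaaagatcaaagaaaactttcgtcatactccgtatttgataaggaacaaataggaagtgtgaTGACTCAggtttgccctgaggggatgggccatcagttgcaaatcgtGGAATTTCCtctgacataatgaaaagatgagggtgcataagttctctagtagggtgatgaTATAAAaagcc
The AP-1 word was in the promoter of CXCL8 and in none of the other 8 promoters, against 4.95% of all promoters. The TATA box word was in the promoters of CXCL8, CCL20 and NFKBIA, against 11.5% of all promoters.

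CXCL2, CXCL5, CXCL8 and TNFAIP3, expressed in both lines, had more RNA in PLC than in Huh7 at both concentrations. Both PLC libraries lay above both Huh7 libraries for 7 of the 10 genes (CXCL2, CXCL3, CXCL5, CXCL8, TNFAIP3, BIRC3 and LIF), a pattern shown by 33% of the 25505 genes with an FPKM over 0.5 in some library. None of the 10 genes had both Huh7 libraries above both PLC libraries, against 35.2% of all those genes. CXCL3, BIRC3 and LIF were under 0.5 FPKM in both Huh7 libraries and passed the minimum through PLC alone, so they could only fall on the PLC side. Of the 7 genes over 0.5 FPKM in a library of each line, 4 had both PLC libraries above both Huh7 libraries and 0 the reverse, against 31.3% and 32.4% of 18108 genes. CXCL1, CCL20 and NFKBIA overlapped between the lines. In RNA from a whole culture, more cells that make a transcript and more transcript per cell cannot be told apart.

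**Figure D1:**
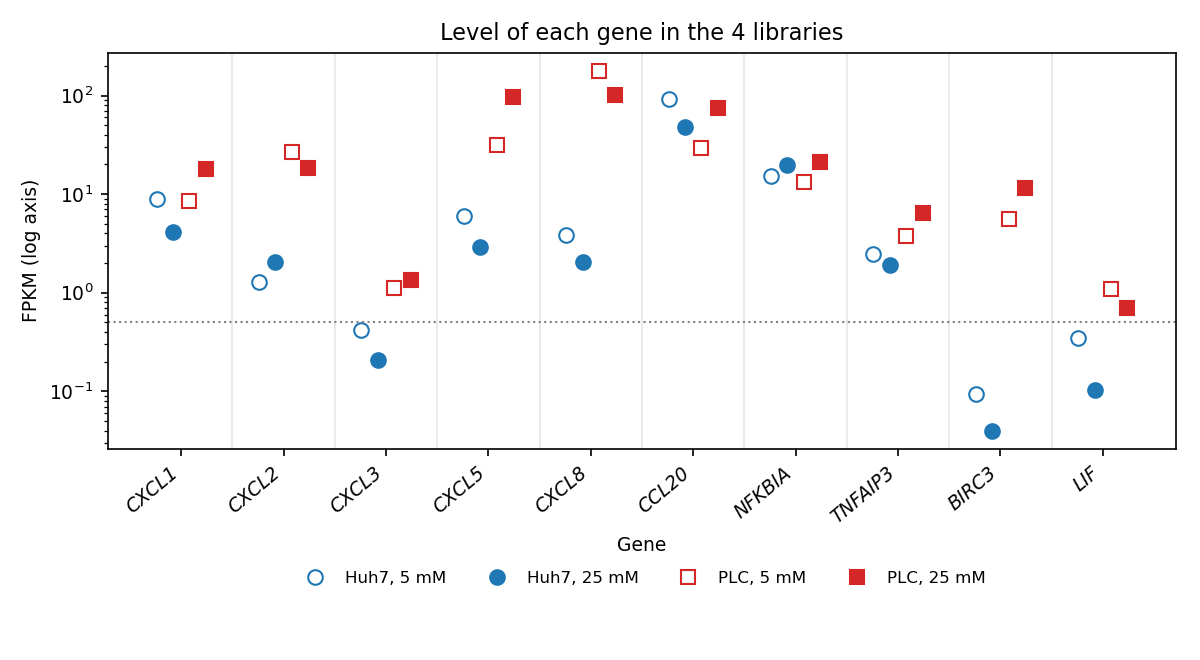
FPKM of the 10 genes in the 4 libraries on a log axis, 1 point per library, with circles for Huh7, squares for PLC, open symbols for 5 mM and filled symbols for 25 mM glucose. The dotted line marks 0.5 FPKM, under which CXCL3, BIRC3 and LIF lie in both Huh7 libraries. CXCL8 and BIRC3 show the widest gaps between the lines.

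Each line had its own leading gene. In Huh7 the highest of the 10 was CCL20, with 91.5 FPKM at low and 48.5 FPKM at high glucose, followed by NFKBIA. In PLC it was CXCL8, with 178 and 101 FPKM, and CXCL5 was second at both concentrations. CCL20 at low glucose lay above 98.6% of the genes with an FPKM over 0.5 in Huh7, and CXCL8 at low glucose above 99.4% of those in PLC. At the bottom of the order were BIRC3 in both Huh7 libraries and LIF in both PLC libraries. Neighbours in the order cannot be compared against a spread, and several had overlapping 95% Poisson intervals, which cover counting error only. In Huh7 these neighbours were CXCL3 with LIF at low glucose, and CXCL2 with CXCL8, CXCL8 with TNFAIP3, CXCL3 with LIF, and LIF with BIRC3 at high glucose. In PLC they were CXCL5 with CCL20, CCL20 with CXCL2, and CXCL3 with LIF at low glucose, and CXCL8 with CXCL5, NFKBIA with CXCL2, and CXCL2 with CXCL1 at high glucose.

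The ELR chemokines together reached 20.5 FPKM at low and 11.4 FPKM at high glucose in Huh7, and 246 and 236 FPKM in PLC. The mix differed as well as the sum. CXCL1 held the largest share in Huh7, with 43.5% and 36.1% of the summed FPKM, and 3.50% and 7.65% in PLC. CXCL8 held 72.5% of the sum in PLC at low and 42.8% at high glucose, while CXCL5 went from 12.8% to 41.1%. The summed level in PLC was thus similar at both concentrations, with less CXCL8 and more CXCL5 at high glucose.

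CXCL8 encodes interleukin-8, the best known neutrophil attractant in humans (chromosome 4 of hg38, 73740541 to 73743716, plus strand). It had 185 reads (3.87 FPKM) in Huh7 at low glucose, 138 reads (2.05 FPKM) in Huh7 at high glucose, 12089 reads (178 FPKM) in PLC at low glucose and 3634 reads (101 FPKM) in PLC at high glucose. The PLC libraries were far above the Huh7 libraries, and in both lines the high-glucose library was the lower. PLC exceeded Huh7 46.1-fold at low glucose (95% counting interval 39.9 to 53.6) and 49.4-fold at high glucose (41.6 to 58.9). The ratio of high to low glucose was 0.530 in Huh7 (0.422 to 0.664) and 0.567 in PLC (0.546 to 0.589). These intervals are exact Clopper-Pearson intervals of the share of reads in 1 of the 2 libraries, turned into a ratio. They cover counting error only and compare libraries, not conditions. CXCL8 was the only ELR chemokine whose ratio lay below 1 in both lines.

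CXCL5, a neutrophil attractant made by epithelial cells (chromosome 4, 73995642 to 73998677, minus strand), had 6.01 and 2.93 FPKM in Huh7 at low and high glucose and 31.5 and 96.9 FPKM in PLC. High glucose went with the lower level in Huh7 and the higher level in PLC. Over low glucose, high glucose stood at 0.488 in Huh7 (0.408 to 0.583) and 3.08 in PLC (2.92 to 3.24), the highest of the 10 genes in PLC. PLC therefore exceeded Huh7 5.24-fold at low glucose and 33.0-fold at high glucose. The exons of CXCL5 share 422 bases with the antisense gene AC097709.1, which had between 13 and 73 reads in a library.

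CXCL1, also known as GRO-alpha (chromosome 4, 73869393 to 73871308, plus strand), had 8.90 and 4.10 FPKM in Huh7 at low and high glucose and 8.61 and 18.1 FPKM in PLC. At low glucose PLC stood at 0.968 of Huh7 with an interval that holds 1 (0.822 to 1.14), and at high glucose PLC was 4.41-fold higher (3.67 to 5.31). The ratio of high to low glucose was 0.461 in Huh7 (0.377 to 0.562) and 2.10 in PLC (1.81 to 2.43). CXCL1 was thus lower at high glucose in Huh7 and higher in PLC, as CXCL5 was.

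CXCL2, the close relative of CXCL1 also called GRO-beta (chromosome 4, 74097040 to 74099196, minus strand), had 1.27 and 2.07 FPKM in Huh7 at low and high glucose and 26.6 and 18.6 FPKM in PLC. The directions were the reverse of those of CXCL1, higher at high glucose in Huh7 and lower in PLC. The ratio was 1.63 in Huh7 (1.10 to 2.45), from 38 and 87 reads, and 0.702 in PLC (0.626 to 0.786). PLC exceeded Huh7 20.9-fold at low and 9.01-fold at high glucose. CXCL3, the third GRO chemokine (chromosome 4, 74036589 to 74038807, minus strand), was the lowest of the ELR members, with 20 and 14 reads (0.422 and 0.210 FPKM) in Huh7 and 75 and 48 reads (1.12 and 1.35 FPKM) in PLC. The interval of its glucose ratio held 1 in both lines, at 0.497 in Huh7 (0.232 to 1.03) and 1.21 in PLC (0.823 to 1.76). The 3 GRO genes resemble each other in sequence, and 23.6% of the 31-base words in CXCL2 transcripts also occur in other genes, against 13.7% for CXCL1 and 9.23% for CXCL3. How reads with several matches were counted is not given in the sources used here, so part of the reads of these 3 genes could belong to a relative, while CXCL8 shared no such word with any other gene.

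CCL20, the ligand of CCR6 (chromosome 2, 227805739 to 227817564, plus strand), had 3118 reads (91.5 FPKM) in Huh7 at low glucose, 2325 reads (48.5 FPKM) in Huh7 at high glucose, 1409 reads (29.2 FPKM) in PLC at low glucose and 1892 reads (74.0 FPKM) in PLC at high glucose. It was the only one of the 10 past the thresholds in the direction of Huh7 at low glucose, where PLC stood at 0.319 of Huh7 (0.299 to 0.340). At high glucose the order turned, with PLC 1.53-fold higher (1.44 to 1.62), and this excess was 1.44-fold with libraries scaled by TMM. Its glucose ratio, high over low, was 0.530 in Huh7 (0.502 to 0.559) and 2.53 in PLC (2.36 to 2.72).

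LIF, a cytokine of the interleukin-6 family that signals to STAT3 (chromosome 22, 30240453 to 30246759, minus strand), was low throughout, with 29 and 12 reads (0.351 and 0.103 FPKM) in Huh7 and 129 and 44 reads (1.10 and 0.708 FPKM) in PLC. Both PLC libraries lay above both Huh7 libraries, by 3.14-fold at low glucose (2.09 to 4.88) and 6.87-fold at high glucose (3.57 to 14.3). Like CXCL8, LIF was lower at high glucose in both lines, with ratios of 0.294 in Huh7 (0.137 to 0.594) and 0.644 in PLC (0.446 to 0.913).

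The feedback genes act at different steps. NFKBIA encodes IkB-alpha, which binds NF-kB dimers and carries them back out of the nucleus (chromosome 14, 35401513 to 35404749, minus strand). It had 15.1 and 19.6 FPKM in Huh7 at low and high glucose and 13.3 and 21.2 FPKM in PLC, the narrowest range of the 10 genes. Its level was close in the lines, with PLC at 0.876 of Huh7 at low glucose (0.796 to 0.965) and 1.08 at high glucose (0.990 to 1.18). The ratio of high to low glucose was above 1 in both lines, 1.30 in Huh7 (1.19 to 1.42) and 1.60 in PLC (1.46 to 1.76), and no other member was higher at high glucose in both.

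TNFAIP3 encodes A20, an enzyme that edits ubiquitin chains on signalling proteins upstream of NF-kB (chromosome 6, 137867214 to 137883312, plus strand). It had 2.46 and 1.90 FPKM in Huh7 and 3.79 and 6.41 FPKM in PLC. Its glucose ratio was 0.772 in Huh7 (0.651 to 0.916) and 1.69 in PLC (1.498 to 1.91). PLC exceeded Huh7 1.54-fold at low and 3.38-fold at high glucose.

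BIRC3 encodes cIAP2, a ubiquitin ligase of the TNF receptor complex that restrains cell death (chromosome 11, 102317450 to 102339403, plus strand). It was nearly silent in Huh7, with 15 reads (0.0933 FPKM) at low and 9 reads (0.0398 FPKM) at high glucose, against 1286 reads (5.65 FPKM) and 1394 reads (11.6 FPKM) in PLC. The excess in PLC was 60.5-fold at low glucose (36.6 to 109) and 290-fold at high glucose (153 to 636), the widest difference between the lines among the 10 genes. Between glucose concentrations the ratio was 2.05 in PLC (1.89 to 2.21), and in Huh7 it was 0.426 with an interval that holds 1 (0.165 to 1.04). Its neighbour BIRC2, which encodes the related cIAP1 and starts 7807 bases after the end of BIRC3, was expressed in both lines, with 11.5 and 12.6 FPKM in Huh7 and 44.9 and 33.5 FPKM in PLC.

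**Figure D2:**
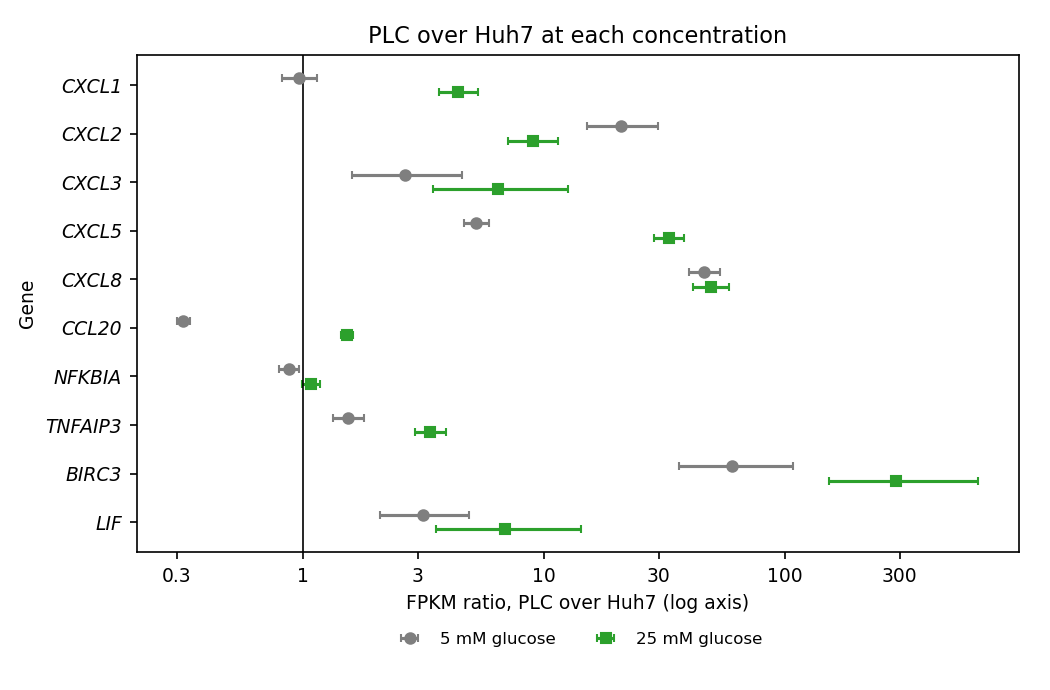
FPKM in PLC divided by FPKM in Huh7 for each of the 10 genes on a log axis, at 5 mM (circles) and 25 mM glucose (squares), with bars for the 95% counting interval. CXCL8 lies near 46.1 and 49.4, BIRC3 at 60.5 and 290, and NFKBIA beside the line at 1.

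The study screened long non-coding RNAs on an FPKM minimum of 0.5 and a high over low glucose ratio over 1.5 or under 0.67. Its FPKM values came from StringTie. Here the same cutoffs were applied to the 10 protein-coding genes, with FPKM computed from the counts, and also used between the lines. The shares of all genes set beside them cover genes of every type in the count table, non-coding ones included. The minimum was asked of at least 1 of the libraries compared, and 0.1 was added to both values of a ratio. These choices are not the study's. By these thresholds 7 of the 10 genes were lower and 1 (CCL20) higher in Huh7 than in PLC at low glucose. Of all 23485 genes with such an FPKM, 31.1% were lower and 35.7% higher in Huh7. At high glucose 9 of the 10 were lower and none higher in Huh7, NFKBIA being the exception, against 33% lower and 32% higher among 23824 genes. CXCL3, BIRC3 and LIF passed the FPKM minimum through their PLC libraries alone and so could only be lower in Huh7. With an FPKM over 0.5 required in both libraries, 4 of 7 genes were lower and 1 (CCL20) higher in Huh7 at low glucose, against 25.9% and 28% of 16163 genes, and at high glucose 6 of 7 were lower and 0 higher, against 27.1% and 24.5% of 16521 genes.

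For the lines as a whole, over both glucose concentrations, the quasi-likelihood model of edgeR was fitted to all 23217 genes that passed its filter, with glucose as a term. The fit has 1 residual degree of freedom, and the libraries of a line are not replicate cultures. Lower in Huh7 at an adjusted p under 0.05 were 7 of the 10 genes, against 21.1% of all genes tested, and higher in Huh7 were 0 of the 10, against 21.8%. CXCL8 was lower in Huh7 by a log2 fold change of -5.58 (standard error 0.26, edgeR adjusted p = 4.65e-09) and BIRC3 by -7.01 (standard error 0.47, edgeR adjusted p = 9.72e-08). CXCL2 and CXCL5 followed with log2 fold changes of -3.75 and -3.71, then LIF with -2.15, CXCL3 with -2.02 and TNFAIP3 with -1.20, at edgeR adjusted p-values from 4.09e-06 to 0.0102. CXCL1 did not pass the test (log2 fold change -1.04, standard error 0.44, edgeR adjusted p = 0.0731), and neither did CCL20 (0.51, standard error 0.40, adjusted p = 0.323) or NFKBIA (0.03, standard error 0.24, adjusted p = 0.928). With DESeq2, CXCL3 (adjusted p = 0.147) and LIF (adjusted p = 0.0685) no longer passed. The hepatocyte marker sum was higher in Huh7, and whether that bears on these genes was not tested.

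Between the glucose concentrations, the direction of the difference was not the same in both lines for most of these genes. In Huh7, 7 of the 10 passed the FPKM minimum. High glucose went with a lower level of CXCL1, CXCL5, CXCL8 and CCL20 and a higher level of CXCL2 by the thresholds, which is 4 lower and 1 higher, against 13.7% lower and 14.1% higher among 21864 genes. In PLC all 10 passed the minimum, and CXCL1, CXCL5, CCL20, NFKBIA, TNFAIP3 and BIRC3 were higher at high glucose while CXCL8 was lower, which is 6 higher and 1 lower, against 26.2% higher and 17% lower among 21749 genes. These 4 comparisons share libraries and have no replicate check.

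**Figure D3:**
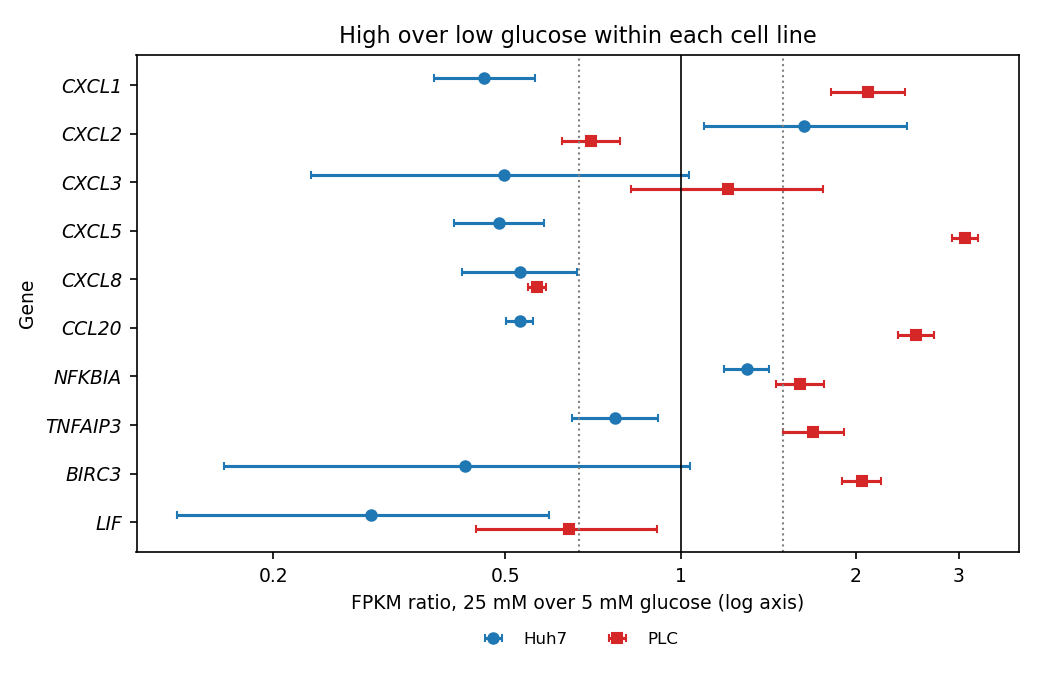
FPKM at 25 mM divided by FPKM at 5 mM glucose for each of the 10 genes on a log axis, with circles for Huh7, squares for PLC and bars for the 95% counting interval. Dotted lines mark ratios of 0.67 and 1.5. CXCL1, CXCL5, CCL20 and BIRC3 lie below 0.67 in Huh7 and above 1.5 in PLC, the Huh7 bar of BIRC3 reaching past 1, and CXCL8 and LIF lie below 0.67 in both lines.

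The ratios fell on opposite sides of 1 in the 2 lines for 7 of the 10 genes, or 70%, against 42.2% of the 18108 genes with an FPKM over 0.5 in a library of each line, a minimum that CXCL3 and BIRC3 among the 7 did not pass. For the other 5 (CXCL1, CXCL2, CXCL5, CCL20 and TNFAIP3) the counting intervals of both lines excluded 1, as they did for 10.2% of those 18108 genes. The ratio in Huh7 divided by the ratio in PLC was 0.159 for CXCL5 (0.132 to 0.190), 0.209 for CCL20 (0.192 to 0.228), 0.220 for CXCL1 (0.173 to 0.280) and 2.32 for CXCL2 (1.56 to 3.45). For CXCL8 it was 0.935 (0.747 to 1.17), an interval that holds 1. The 4 libraries leave no degree of freedom for a test of the interaction. The same markers that differ between the lines also moved with glucose in PLC: the hepatocyte marker AFP was 3.30-fold, CD14 3.90-fold and LYZ 3.003-fold higher at high glucose after 0.1 was added, and their part in the result was not tested.

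In PLC another scaling shifted these values. With TMM factors in place of library totals, every PLC glucose ratio shifts by -0.17 on the log2 scale, and the median log2 ratio of all genes goes from 0.11 to -0.05. On that scale the PLC ratios were 2.75 for CXCL5, 2.26 for CCL20, 1.87 for CXCL1, 1.83 for BIRC3, 1.51 for TNFAIP3, 1.43 for NFKBIA and 0.506 for CXCL8. NFKBIA and TNFAIP3 then missed the upper threshold, TNFAIP3 after 0.1 was added, and CXCL2 (0.626) and LIF (0.574) passed the lower one. This gave 4 of the 10 higher and 3 lower, while of all 21721 genes 4530 were higher and 4884 lower under TMM. In PLC none of the 10 ratios crossed 1 under TMM.

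For glucose, the same edgeR model gave the change common to Huh7 and PLC, with the cell line as a block. None of the 10 genes passed an adjusted p of 0.05, against 0.0646% of all genes called higher and 0.314% called lower, while 2 of the 10 had an unadjusted p under 0.05, against 8.51% of all genes. CXCL8 had a log2 fold change of -0.95 (standard error 0.22, edgeR adjusted p = 0.102), and LIF had -1.19 (standard error 0.50, edgeR adjusted p = 0.511). DESeq2 with the same model called CXCL8 (adjusted p = 0.00315), and so did edgeR without a filter on low counts (adjusted p = 0.0139), while limma-voom called none. NFKBIA, higher at high glucose in both lines, had a log2 fold change of 0.45 (standard error 0.24, edgeR adjusted p = 0.706). In simulated counts the fit recovered 3.5% of glucose changes of 2-fold, so a gene it did not call is not shown to be unchanged.

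Transcripts of the receptors of these ligands were mostly at or near 0 reads. CXCR1 and CXCR2, which bind the ELR chemokines, and the decoy receptor ACKR1 had 0 reads in all 4 libraries, which allows up to 3 reads, or between 0.0991 and 0.187 CPM (reads scaled by the library total alone). CCR6, the receptor of CCL20, had 17 and 43 reads in Huh7 and 0 and 4 reads in PLC. LIFR, the LIF receptor, had 7.43 and 7.44 FPKM in Huh7 and 1.80 and 1.74 FPKM in PLC and was higher in Huh7 (log2 fold change 2.07, standard error 0.24, edgeR adjusted p = 1.64e-05), the line with less LIF. IL6ST, the signalling chain it pairs with, had between 20.98 and 30.95 FPKM and did not pass the test (edgeR adjusted p = 0.166).

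Among the genes that make up NF-kB itself, 4 of 5 subunit genes were lower in Huh7 and 1 (NFKB1) was higher (edgeR adjusted p under 0.05), with a median log2 fold change of -0.85 against 0.03 over all genes, of which 21.1% were lower and 21.8% higher. NFKB2, the subunit of the non-canonical pathway, had 4.28 and 3.98 FPKM in Huh7 and 19.5 and 34.4 FPKM in PLC (log2 fold change -2.66, standard error 0.27, edgeR adjusted p = 4.62e-06), and its partner RELB had 5.21 and 3.45 FPKM in Huh7 and 16.5 and 19.5 FPKM in PLC. Both PLC libraries lay above both Huh7 libraries for each. RELA, the main activating subunit, differed less, with 10.4 and 10.0 FPKM in Huh7 and 23.8 and 14.0 FPKM in PLC. Of the 7 other genes of the IkB family, 2 (NFKBIB and NFKBIE) were lower in Huh7 and 0 higher. Of 23 genes of the IKK complex and upstream signalling, 5 were lower and 4 higher in Huh7, and of 9 A20 partners and related deubiquitinases tested, 2 were lower and 0 higher. NFKBIZ, a nuclear member of the IkB family with between 8.85 and 15.6 FPKM, and BCL3, another, with between 9.26 and 15.1 FPKM, did not pass the test. IRAK1, a kinase of the interleukin-1 receptor pathway, had 33.2 and 27.5 FPKM in Huh7 and 109 and 83.7 FPKM in PLC (log2 fold change -1.66, standard error 0.21, edgeR adjusted p = 2.84e-05). Of the 5 other IAP genes tested, which are relatives of BIRC3, 2 (BIRC2 and XIAP) were lower in Huh7 and 2 (BIRC5 and NAIP) higher. NAIP was under 0.5 FPKM in every library, with 74 and 61 reads in Huh7 and 24 and 5 reads in PLC.

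Of 30 other genes listed as NF-kB targets, only 16 passed the filter of edgeR and were tested. Among these 16, 8 were lower in Huh7 and 0 higher, against 21.1% and 21.8% of all genes tested. The median log2 fold change of the 16 was -1.08. TRAF1, CD83, TNFRSF9 and EBI3, which are among the 8, were under 0.5 FPKM in both Huh7 libraries, so only a higher level in PLC could bring them over that level. CD83, a surface marker of mature dendritic cells, had 2 and 6 reads in Huh7 and 44 and 46 reads in PLC, and EBI3, a cytokine subunit gene, had 0 and 5 reads in Huh7 and 120 and 38 reads in PLC. IL32, a proinflammatory cytokine gene, had 2.36 and 1.57 FPKM in Huh7 and 63.8 and 48.9 FPKM in PLC (log2 fold change -4.86, standard error 0.26, edgeR adjusted p = 1.45e-08). IER3, an early response gene, had 4.05 and 4.41 FPKM in Huh7 and 48.8 and 34.9 FPKM in PLC. ICAM1, an adhesion molecule for leukocytes, had 15.01 and 9.19 FPKM in Huh7 and 38.7 and 63.8 FPKM in PLC, so it was lower at high glucose in Huh7 and higher in PLC, the directions of CXCL1, CXCL5 and CCL20. BCL2L1, a survival gene with between 52.0 and 59.4 FPKM, did not pass the test (edgeR adjusted p = 0.675).

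**Figure D4:**
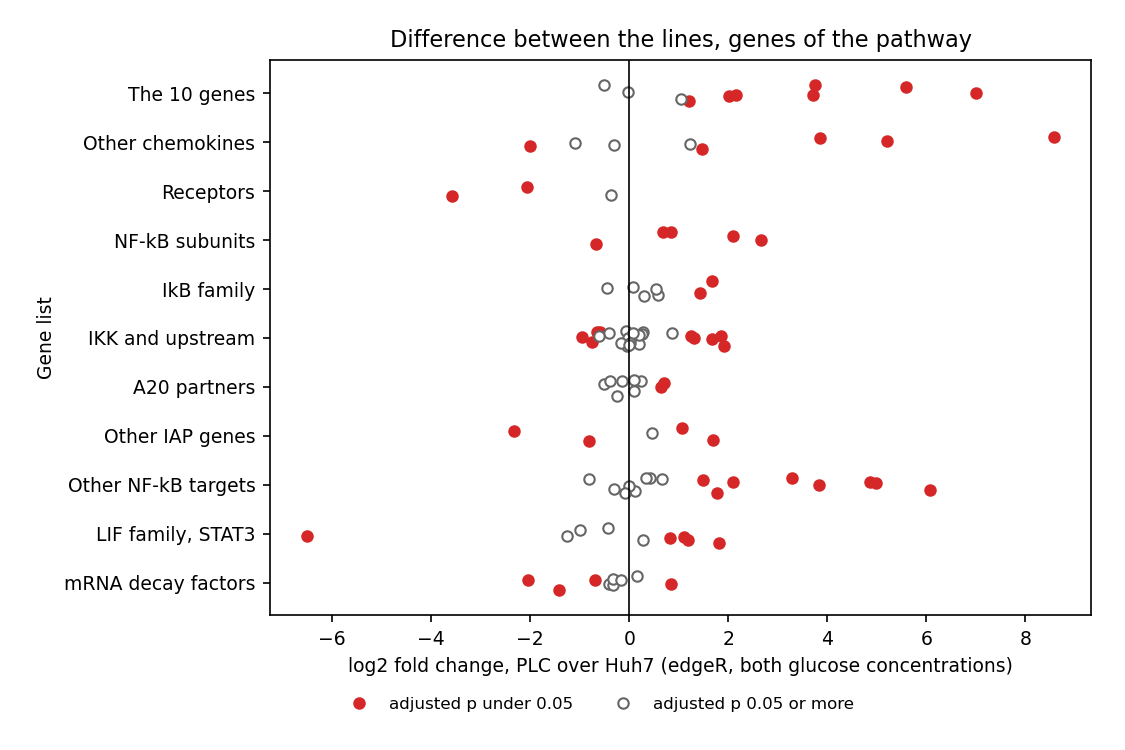
Log2 fold change between the lines by edgeR, PLC over Huh7 and over both glucose concentrations, for the 10 genes and 10 lists of related genes, 1 point per gene tested, spread vertically for legibility. Filled points have an adjusted p under 0.05. BIRC3 and CXCL8 are the farthest to the right of the 10 genes, and OSMR lies at the far left.

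Among 8 other chemokine genes tested, 4 were lower in Huh7 and 1 higher, against 21.1% and 21.8% of all genes tested. CXCL12 and CCL28, among the 4, were under 0.5 FPKM in both Huh7 libraries, so only PLC could bring them over that level. CCL14, another of the 4, had 0 and 2 reads in Huh7 and 18 and 9 reads in PLC, under 0.5 FPKM in every library. CXCL12, the ligand of CXCR4, had 2 reads in each Huh7 library and 973 and 505 reads in PLC, and CCL28, a mucosal chemokine, had 0.259 and 0.176 FPKM in Huh7 and 9.67 and 6.46 FPKM in PLC. CXCL16, a chemokine made as a membrane protein, went the other way, with 9.89 and 9.31 FPKM in Huh7 and 2.42 and 2.36 FPKM in PLC. CXCL16 had glucose ratios of 0.942 in Huh7 and 0.977 in PLC after 0.1 was added. In the LIF family and STAT3 list, 4 of 9 genes tested were lower in Huh7 and 1 higher, against the same shares of all genes. The 1 higher was OSMR, the oncostatin M receptor, with 10.9 and 13.7 FPKM in Huh7 and 0.138 and 0.122 FPKM in PLC.

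Genes of chemokine mRNA decay were also listed, since short-lived chemokine messages are degraded through AU-rich elements. Of the 9 tested, 3 were higher in Huh7 and 1 was lower, against 21.8% and 21.1% of all genes tested. ZFP36L2, which binds these elements, had 49.6 and 53.8 FPKM in Huh7 and 16.7 and 9.16 FPKM in PLC (log2 fold change 2.05, standard error 0.27, edgeR adjusted p = 5.18e-05). KHSRP and HNRNPD, which also bind them, were higher in Huh7 with log2 fold changes of 0.69 and 1.42.

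The 5 ELR chemokine genes lie in 1 cluster on chromosome 4, in which 18 genes of the table span 358656 bases from CXCL8 to CXCL2. Of these 18 genes, 8 had an FPKM over 0.5 in at least 1 library. The platelet chemokine genes PF4, PPBP and PF4V1 had 0 reads in every library. CXCL6, a close relative of CXCL5, had 24 and 12 reads in Huh7 and 6 and 8 reads in PLC. Neighbours in the cluster did not share 1 pattern: CXCL8 and CXCL2, at its ends, had the highest and the third highest ELR level in PLC at low glucose and were lower there at high glucose, while CXCL1 and CXCL5 between them were higher.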

How the data were processed

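RNA of Huh7 and PLC cells at 5 mM and 25 mM glucose was sequenced by the authors after rRNA depletion, with directional libraries and 1 library per condition. The submitters' processing notes name HISAT2, featureCounts and hg38. Versions, the annotation release and the settings for strand and multiply mapped reads are not given in the sources used here. The deposited values are raw counts of reads per gene, without normalization. Of 59657 lines, 59652 were used, and 5 lines of a broken ANK2 entry were left out. Depth was 21376239 and 30085303 counted reads in Huh7 and 30279716 and 16049686 in PLC (low and high glucose).

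FPKM was computed from the counts, the gene lengths of the table and the library totals. Ratios printed for the 10 genes have nothing added, and calls by the thresholds used 0.1 added to both values. Intervals are at 95%, and those of a ratio between 2 libraries are exact Clopper-Pearson. Intervals of the Huh7 ratio divided by the PLC ratio are normal on the log scale, from the read counts. Those of single levels are exact Poisson. edgeR 4.0.16 (quasi-likelihood, TMM, filterByExpr, Benjamini-Hochberg adjustment over all genes) was fitted to all 4 libraries with cell line and glucose as terms. DESeq2 1.42.0, limma 3.58.1, other filters, scalings, added values and thresholds were alternatives. The fit was tested on simulated counts with 200 genes changed. It recovered 3.5% of glucose changes of 2-fold, 78% of 4-fold and 86% of 8-fold ones. For the difference between the lines the shares were 3.5%, 76% and 89%.

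Promoters are from RefSeq on GRCh38.p14, and shared 31-base words from GENCODE release 44. The kB consensus, GGAATTTCC, TGACTCA and TATAAA were searched on both strands. The members and the lists of related genes were chosen with earlier results of these data known. Genes were picked for naming beside the members by a rule: receptors, genes of the chromosome 4 cluster, BIRC2, the 3 most highly expressed genes of each list, list genes that passed the thresholds with 1 direction in Huh7 and PLC alike or with a line ratio over 4 or under 0.25 at both concentrations, and the 5 genes nearest in pattern to CXCL8 and to NFKBIA. Not all genes so picked are named, and cell type markers are given mainly as sums. NFKB1, NFKBIE, XIAP, NAIP, TRAF1, TNFRSF9, ZFP36 and CCL14 lie outside the rule and were named after their values were seen.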

Additional observations from a re-analysis of the deposited data

Results flagged for a closer look

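For 7 of the 10 genes the ratio of high to low glucose lay on opposite sides of 1 in the lines, with 1 library behind each value. Whether the lines differ in this was not tested, because 4 libraries leave no degree of freedom for it. The ratio in Huh7 divided by the ratio in PLC was 0.22 for CXCL1, 2.32 for CXCL2, 0.412 for CXCL3, 0.159 for CXCL5, 0.209 for CCL20, 0.457 for TNFAIP3 and 0.208 for BIRC3. For CXCL3 the counting interval of each line's own ratio held 1, and for BIRC3 that of Huh7 did, from 15 and 9 reads.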

How the results depend on the processing

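Counts of the 10 genes past a threshold moved by over 1.5 times in 5 of 48 alternatives. With ratios over 2 or under 0.5 required, the count fell from 5 to 2 for glucose in Huh7 and from 7 to 4 for glucose in PLC. Of all 21864 genes in Huh7, those higher then fell from 3081 to 1556 and those lower from 2987 to 1510. Of all 21749 genes in PLC, those higher fell from 5709 to 3216 and those lower from 3700 to 2037. With an FPKM over 0.5 in both libraries, the count between the lines at low glucose fell from 8 to 5. Of all 16163 genes past that minimum, 4519 were higher and 4191 lower in Huh7. For the glucose change shared by both lines, the count rose from 0 to 1 with no filter on low counts and to 1 with DESeq2, the gene being CXCL8 both times. The log2 fold change for glucose of CXCL1 turned from -0.08 to 0.024 with limma-voom and to 0.25 without the cell line block, and that of CCL20 from 0.13 to -0.051 without the block. For the difference between the lines, CXCL1 passed with no filter on low counts (adjusted p = 0.0148), CXCL3 and LIF did not pass with DESeq2 (adjusted p = 0.147 and 0.0685), and BIRC3 could not be tested with at least 10 counts in every library, since it had 9 reads in Huh7 at high glucose. The other 108 of 116 edgeR, DESeq2 and limma fold changes of single genes kept direction and side of the threshold. Of 160 FPKM ratios under other scalings or added values, 138 stayed within the counting error of the main value, and none past a threshold crossed 1. Among all genes, edgeR called 88 for glucose, against 526 with no filter, 194 with DESeq2, 27 with at least 10 counts in every library and 0 without the cell line block, where 52 had an unadjusted p under 0.05. The cause of these changes was not tested. The labels carry no replicate numbers to pair by, and the pairing the design does hold, of both concentrations within a line, is the cell line block of the fit. Each condition has 1 library, so none could be left out of it. With 1 library per condition, depth sets only the counting error, which is widest for BIRC3, CXCL3 and LIF in Huh7, with between 9 and 29 reads.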

Other observations

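Among the genes listed beside the 10, 5 passed the thresholds with 1 direction in Huh7 and PLC alike, setting aside the cell type markers. The share of all genes that did so was not computed, so this count is not a result about the lists. TNFSF10, which encodes the death ligand TRAIL, had 117 and 596 reads (1.59 and 5.76 FPKM) in Huh7 at low and high glucose and 81 and 207 reads (0.777 and 3.75 FPKM) in PLC. It was the only one of the listed genes called for the shared glucose change (log2 fold change 1.98, standard error 0.33, edgeR adjusted p = 0.0242). Of all 23217 genes tested, 0.379% were called for that change. BIRC5, which encodes survivin, went from 15.2 to 24.4 FPKM in Huh7 and from 5.79 to 20.6 FPKM in PLC (edgeR adjusted p = 0.116). NFKBID, a nuclear IkB gene, went from 1.05 to 1.80 FPKM in Huh7 and from 1.56 to 2.71 FPKM in PLC (edgeR adjusted p = 0.657). GADD45B, a stress response gene, went from 18.2 to 9.52 FPKM in Huh7 and from 15.5 to 9.73 FPKM in PLC (edgeR adjusted p = 0.217). RBCK1, which encodes the HOIL-1 subunit of the linear ubiquitin ligase, went from 20.3 to 12.6 FPKM in Huh7 and from 11.7 to 7.54 FPKM in PLC (edgeR adjusted p = 0.2495).

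By the Euclidean distance of log2(FPKM + 0.1), centred on each gene's mean over the 4 libraries, the 5 of 14928 genes nearest in pattern to CXCL8 were GABRA3 (distance 0.302), RPL10P16, MIR4307HG, BAAT and CYFIP2 (distance 0.475). BAAT, a bile acid conjugating enzyme, had 0.504 and 0.288 FPKM in Huh7 and 22.5 and 12.7 FPKM in PLC. The member nearest to CXCL8 was BIRC3, at a distance of 1.34 and rank 194 of the 14928 genes. Its Huh7 levels, 0.0933 and 0.0398 FPKM, lay under the 0.1 added. Its ratio of high to low glucose in PLC was 2.05, against 0.567 for CXCL8. The 5 genes nearest to NFKBIA were PTCD2 (distance 0.0258), ARL3, SLC39A10, FAM221B and ZNF236 (distance 0.0651). With 4 points a gene, this likeness is a description of 4 libraries.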
